A study of Mus musculus with 9 samples.

Results

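This account covers 5 places in the mouse genome where RNA fragments bound by the neuronal Hu proteins pile up outside the genes of the authors' table. They were chosen with the tag counts in view, as stranded bins of 1 kb in the mm9 build, and a tag belongs to a bin if its middle lies there on that strand. The Hu tags of the bins covered chr6:47731622-47731725 plus, chr8:15519866-15519995 plus, chr19:5798996-5800010 minus, chr18:82753388-82754030 plus and chr4:138013098-138014015 plus. The 5 bins held 1745 of the 321854 genomic tags of 9 libraries. Below, each is called by its chromosome.

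The tags come from HITS-CLIP, in which ultraviolet light fixes a protein to the RNA it touches, the protein is precipitated, and the RNA left in the precipitate is sequenced. All libraries were made from brain polysomes of FVB mice, from cortex and cerebellum cleared of white matter, with littermates pooled. There were 5 FMRP libraries sequenced on the 454 platform after dissociation in 1% SDS: a mixture of the monoclonal antibodies 7G1-1 and 2F5 at P14, P15 and P25, and a polyclonal antibody at P14 and P25. There were 4 Illumina libraries after 2% SDS: the polyclonal FMRP antibody at P11 and P13, and a human anti-Hu antiserum at P11 and P13, with each lysate divided between the antibodies. Each age is 1 lysate, so that age and lysate cannot be told apart. No library gives the level of the RNA itself, so more RNA, more cells that hold it and more binding cannot be told apart.

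Hu proteins (ELAV-like proteins) are RNA-binding proteins, most of them neuronal, best known for binding U-rich and AU-rich stretches of introns and 3′ untranslated regions. Y RNAs are short noncoding RNAs made by RNA polymerase III that end in a U-rich tail and are carried by the Ro60 protein, and Malat1 is an abundant nuclear long noncoding RNA. FMRP, the protein lost in fragile X syndrome, is a polysome-associated RNA-binding protein known for long contacts along coding sequence.

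None of the 5 bins overlapped a gene in the authors' table, so their identity was read from the order of neighbouring genes in RefSeq GRCm38.p6. The chr6 bin lies between Ezh2 and Pdia4. In GRCm38.p6 that interval holds, among other genes, Rny3 (the Y3 RNA) and Rny1 (the Y1 RNA) towards Pdia4. The tags of the chr6 bin spanned 105 nt in all libraries together, and Rny3 is 101 nt long. The chr8 bin lies between BB014433 and Csmd1, which are 472932 and 372545 nt away. That interval also holds Myom2, the long noncoding RNAs Gm35392 and Gm46033 and a pseudogene. Its 1 snoRNA gene, Gm24231, is 131 nt long, and tags in the bin spanned 135 nt in all libraries and 130 nt in the Hu libraries. In so wide an interval the match to Gm24231 rests on length. The chr19 bin has Frmd8 as a neighbour, beside which GRCm38.p6 places Malat1, Mascrna and Neat1. The continuous run of bins around the chr19 bin was 7 kb long, against 6983 nt for Malat1. That run was counted in whole bins of 1 kb with at least 10 Illumina tags each, so its length is coarse. These are matches of order and length, not of coordinates, and the transcript lists, which hold only mRNA accessions, had a tag for 0 of the 26 noncoding genes looked up.

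The description of the set as noncoding or intergenic was not borne out for all 5 places. The chr18 bin starts 24906 nt beyond the end of Mbp (myelin basic protein) as the authors' table bounds it, at 82644514-82728095, but the Mbp gene of GRCm38.p6 is 110547 nt long, more than those bounds span. The chr4 bin lies between Mul1 and Ubxn10, an interval that in GRCm38.p6 holds the protein-coding Camk2n1, an inhibitor of CaMKII, together with Vwa5b1 and 3 long noncoding RNAs. In the transcript lists Camk2n1 had 0 tags in every library, and Mbp had 0 at P11 and 10 at P13 in the Hu libraries. Whether these bins are noncoding or untranslated parts of an mRNA was not settled here, and they are described by position alone.

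Hu tags were most numerous in the chr6 bin, with 95 tags at P11 and 462 at P13, against 10 and 24 in the FMRP Illumina libraries of the same lysates. Scaled to a common total of genomic tags per library (CPM), this was 1607 and 4675 for Hu, and 229 and 352 for FMRP. The chr8 bin held 64 and 288 Hu tags against 14 and 37 FMRP tags. The chr19 bin held 53 and 224 Hu tags against 6 and 38 FMRP tags. In all these bins both Hu libraries were above both FMRP libraries in CPM.

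The chr18 bin held 41 and 124 Hu tags and 1 and 10 FMRP tags. The chr4 bin held 29 and 180 Hu tags and 1 and 27 FMRP tags. Here too Hu was above FMRP within each lysate, and in the chr4 bin the P11 Hu level of 491 CPM lay close to the FMRP level of 396 CPM at P13. By Hu tags the bins ranked 1, 4, 8, 22 and 13 (chr6, chr8, chr19, chr18 and chr4) among the 46 stranded bins with at least 100 Hu tags. No tag lay on the opposite strand of any of the 5 bins.

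**Figure D1:**
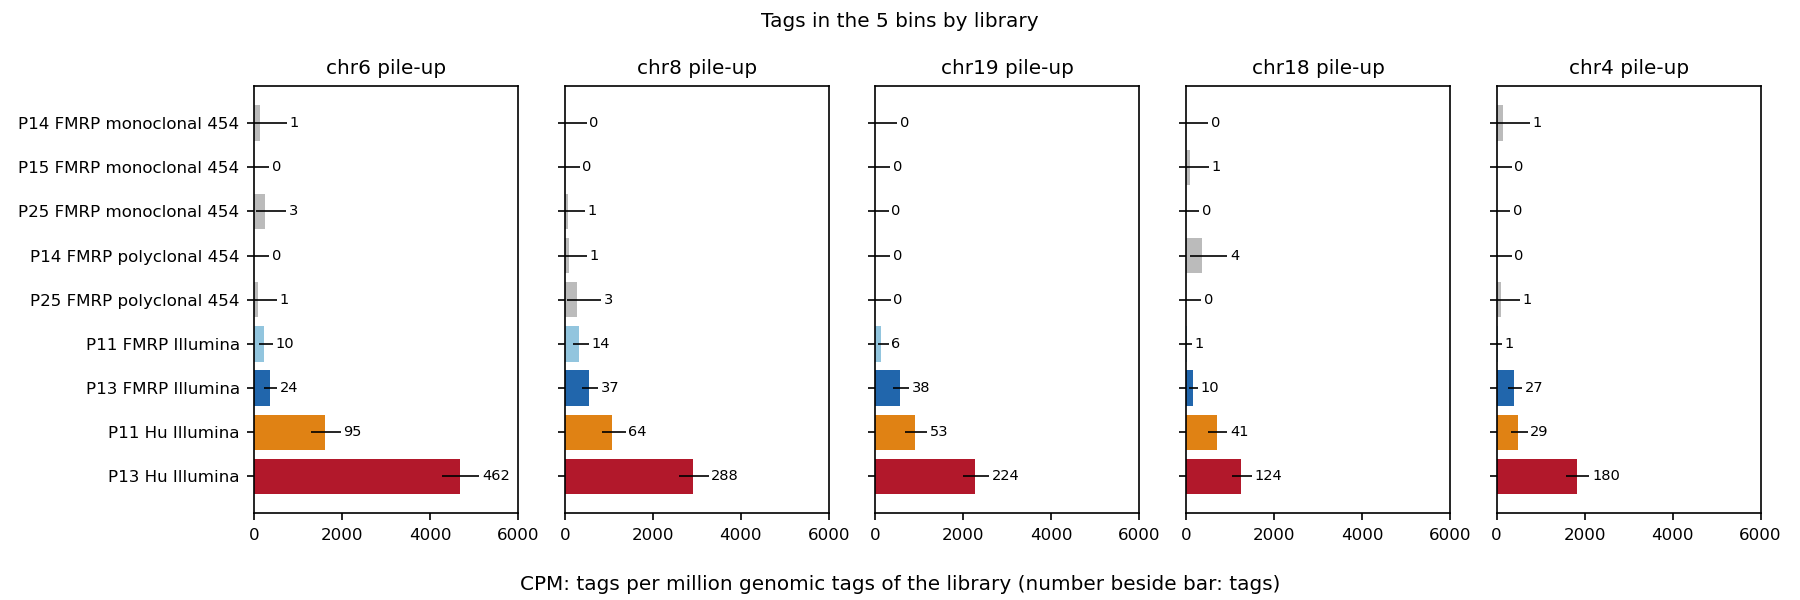
Genomic tags in CPM (horizontal axis) in each of the 5 bins for the 9 libraries, with exact 95% intervals as lines and the number of tags beside each bar. The P13 Hu library has the longest bar in every panel, and the 454 libraries hold 0 to 4 tags each.

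The 5 FMRP libraries on 454 had 17 tags in the bins together and are too shallow to place the level closely. A count of 0 among 7439 to 12153 tags still allows 496 to 303 CPM by the exact 95% interval. In the chr8 bin the 454 libraries with 0 tags had upper limits of 496 and 338 CPM, above the P11 FMRP level of 321. In the other bins these limits lay above the P11 FMRP level too. Of the 5 tags in the chr6 bin, 3 from 3 libraries covered the same stretch, chr6:47731623-47731658, in the 5′ part of the covered RNA. Of the Hu tags, 4 of 95 at P11 and 15 of 462 at P13 ended before the commonest Hu 5′ end (position 47731674), and 0 of 34 FMRP Illumina tags did. All 5 tags in the chr8 bin started at position 15519899. In the chr18 bin 4 of 5 tags came from the P14 polyclonal library, and the chr19 bin had none.

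Hu over FMRP was 7.01 at P11 (exact 95% interval 3.65 to 15.1) and 13.3 at P13 (8.81 to 20.9) in the chr6 bin. It was 3.37 and 5.37 in the chr8 bin, and 6.51 and 4.07 in the chr19 bin. In the chr18 bin the ratio was 30.2 at P11, with 1 FMRP tag behind it and an interval from 5.13 to 1223, and 8.55 at P13. In the chr4 bin it was 21.4 at P11, again over 1 FMRP tag (3.55 to 873), and 4.60 at P13 (3.06 to 7.17). The bins were chosen as high in Hu, so these ratios are a description and no test of them is given; intervals cover counting error only.

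Across all bins, edgeR fitted on the 4 Illumina libraries (2 per protein) gave log2 FMRP over Hu of −3.66 (SE 1.55) for chr6, −2.42 (SE 1.64) for chr8, −2.24 (SE 1.72) for chr19, −3.50 (SE 1.97) for chr18 and −2.43 (SE 1.83) for chr4. The median of all 540 bins tested was −0.67. Relative to that median on the log2 scale, chr6 was the most shifted of the 5 bins in this fit, at −2.995. On the same scale chr18 was at −2.83 and chr19, the least shifted of the 5, at −1.57. Counted from the lowest log2 among the 540 bins, chr6 ranked 43, chr18 56, chr4 170, chr8 173 and chr19 203. Many other bins were thus shifted further towards Hu than chr4, chr8 and chr19. Of the 540 bins, 105 passed the adjusted threshold of 0.05 (19.4%), 25 of them lower in FMRP (4.63%). With the shared lysate as a replicate block, 32 bins passed, 2 of them lower in FMRP. Relative to the median of that fit (−0.74), chr18 was the most shifted of the 5 bins, at −3.27. There chr6 was at −2.86 and chr8, the least shifted, at −1.68. With library totals chr18 was at −3.21 and chr6 at −3.19 relative to the median, so the order of the 5 bins depended on the fit. With library totals 193 passed, 82 of them lower in FMRP, and with DESeq2 160 and 57. Without the P13 Hu library the log2 value was −0.97 for chr8, −0.88 for chr19 and −0.64 for chr4, and without the P13 FMRP library it was −4.00 for chr19, −5.74 for chr18 and −6.04 for chr4. The median of all bins tested moved with them, to 0.35 and −3.60.

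One property of the Illumina lists bears on every count above. Each line carries a 5-letter barcode in its name, and a 5′ end with a given barcode was listed in 1 library only: the 6 pairs of libraries shared 1470 to 5049 5′ ends and 457 to 559 barcodes but 0 combinations of both. Whether repeats across libraries were removed before deposit is not given in the sources used, nor how many tags each library would have lost. The crowded short RNAs are where this could matter most, since 523 of the chr6 tags and 364 of the chr8 tags lay at 5′ ends seen in 2 or more libraries. Within each Illumina library, too, every tag had its own combination of 5′ end and barcode, 98832 of 98832 in the P13 Hu library. Tags at the same 5′ end therefore always differ in barcode in these lists. The fullest 5′ end of the chr6 bin held 107 tags, 62 of them from the P13 Hu library, and that of the chr8 bin held 102. In the chr19, chr18 and chr4 bins the fullest end held 16, 13 and 13.

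The chr6 and chr8 pile-ups were short and sharp. In the chr6 bin every Hu tag, 557 in all, had its middle within 100 nt (chr6:47731638-47731737), and 96.4% of them covered a single base. In the chr8 bin all 352 Hu tags had their middles within 100 nt too, and 100% of them covered chr8:15519930-15519936. The FMRP Illumina tags lay in the same windows, 34 of 34 and 51 of 51. Neighbouring bins on the same strand were empty for chr6 and held 2 FMRP tags for chr8.

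The ends of the tags repeated at single bases. In the chr6 bin 96 of 557 Hu tags (17.2%) began at position 47731674, with 34 of 95 at P11 (35.8%) and 62 of 462 at P13 (13.4%). The next commonest starts were 47731672 (11.7%) and 47731668 (11.3%), and 118 tags (21.2%) ended at 47731718. FMRP tags used the same positions, with 7 of 10 at P11 starting at 47731674 and 4 of 10 ending at 47731718. The last base covered by any tag was 47731726, close to where most tags stopped. In the chr8 bin the commonest 5′ end of the pooled Hu tags, position 15519882, held 23.3% of them, and it was also the commonest in both FMRP libraries, with 8 of 14 and 12 of 37 tags. In the P11 Hu library alone the commonest was 15519896, with 12 of 64 tags (18.8%). Across the 41 other bins with at least 100 Hu tags the commonest 5′ end held a median of 9.35%. By the share at their commonest 5′ end chr6 ranked 10 and chr8 ranked 5 of 46, and at the commonest 3′ end 11 and 12, so other Hu-rich bins had ends as sharp or sharper.

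**Figure D2:**
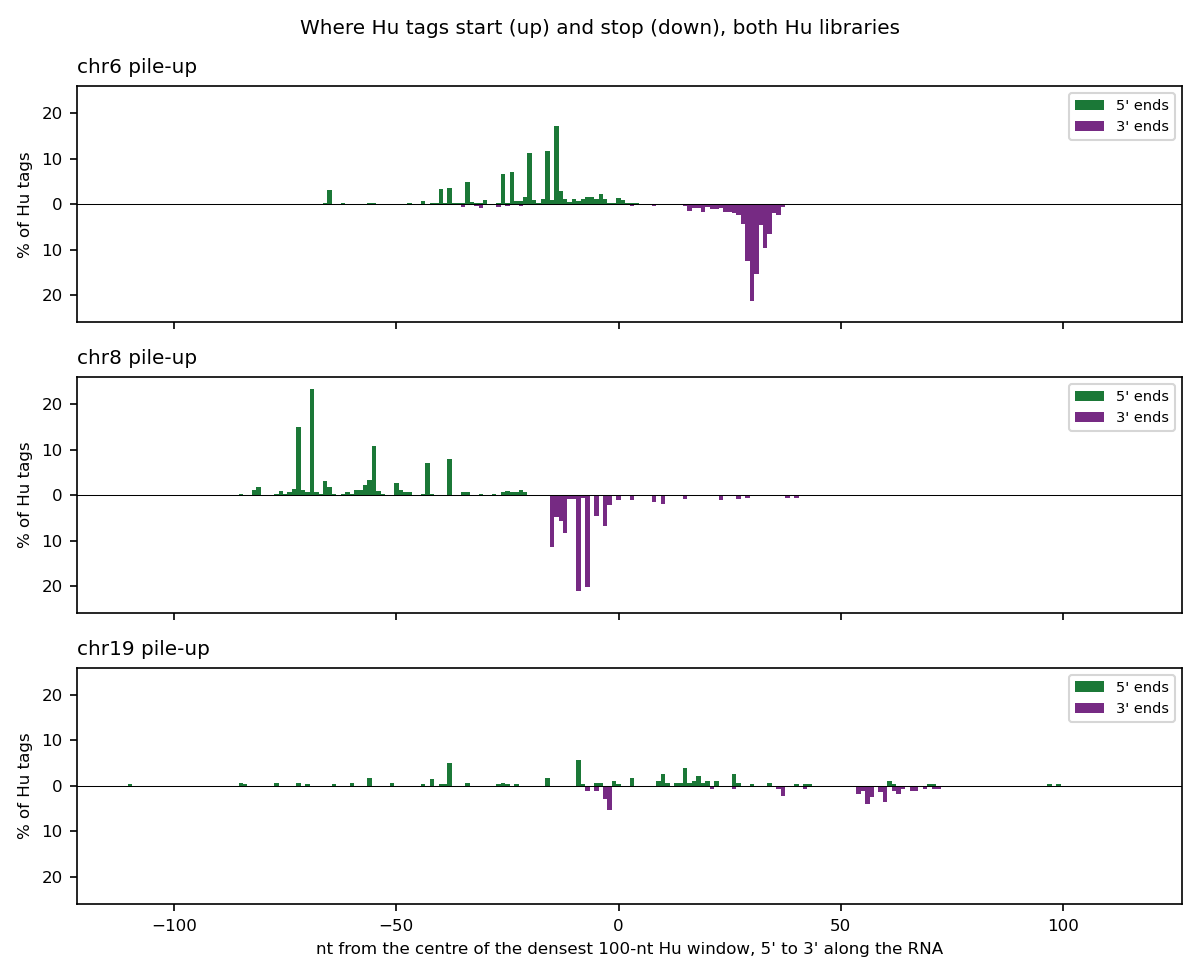
Share of Hu tags (both libraries, vertical axis in percent) that start (up) or stop (down) at each base, against distance in nt from the centre of the densest 100-nt window. The chr6 and chr8 panels have tall single-base bars, up to 21.2% and 23.3%, and the chr19 panel has none above 5.78%.

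The chr19, chr18 and chr4 pile-ups were broad. The densest 100 nt held 48.4% of the Hu tags of the chr19 bin (chr19:5799851-5799950), 43.6% of the chr18 bin (chr18:82753701-82753800) and 36.4% of the chr4 bin (chr4:138013687-138013786). The median of the 41 other bins was 47.9%, and by this share the 3 bins ranked 23, 31 and 35 of 46. Without the P13 Hu library the densest 100 nt of the chr4 bin held 55.2%. The window was placed on the Hu tags, which favours their share of it. In the chr19 bin 0 of 6 FMRP tags at P11 and 8 of 38 at P13 lay in that window (21.1%, exact 95% interval 9.55% to 37.3%), against 30 of 53 Hu tags at P11 (56.6%, 42.3% to 70.2%) and 104 of 224 at P13 (46.4%, 39.8% to 53.2%). In the chr18 bin 5 of 10 FMRP tags at P13 were in the window, and in the chr4 bin 5 of 27.

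**Figure D3:**
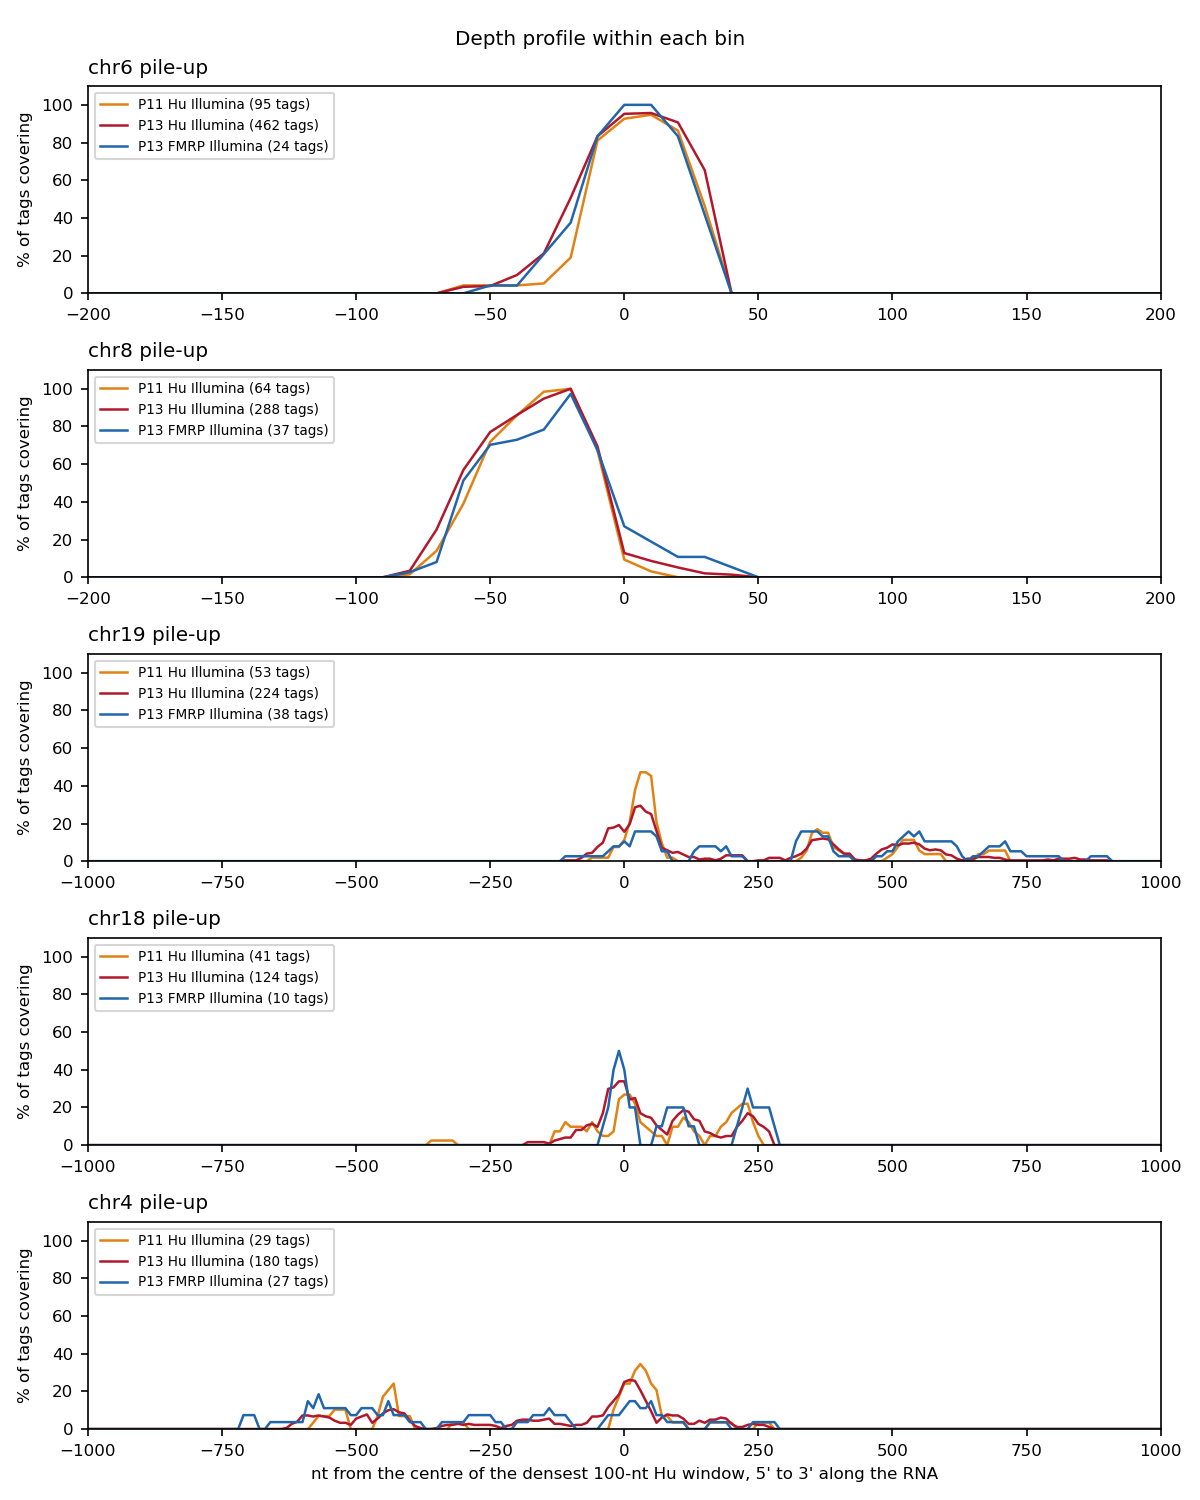
Share of a library's tags in the bin that cover each position (vertical axis, percent), every 10 nt, against distance in nt from the centre of the densest Hu window, with a narrower horizontal range in the chr6 and chr8 panels. Hu at P11, Hu at P13 and FMRP at P13 trace 1 peak in chr6 and chr8 and several low peaks in the other bins.

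Around the chr19 bin, tags filled a run of 7 bins in a row with at least 10 Illumina tags each, chr19:5796001-5803000 minus. The run held 122 and 472 Hu tags and 24 and 202 FMRP tags (P11 and P13). The chr19 bin took 43.4% (exact 95% interval 34.5% to 52.7%) and 47.5% (42.9% to 52.1%) of the Hu tags of the run, and 25% (9.77% to 46.7%) and 18.8% (13.7% to 24.9%) of the FMRP tags. The bin was chosen as high in Hu, which favours the Hu share of it, so nothing is read from the difference in shares. The P13 FMRP tags were most numerous, at 43, in the kb nearest but one to the 3′ end. The 454 libraries placed 20 tags in the run, and 0 of them in the bin.

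**Figure D4:**
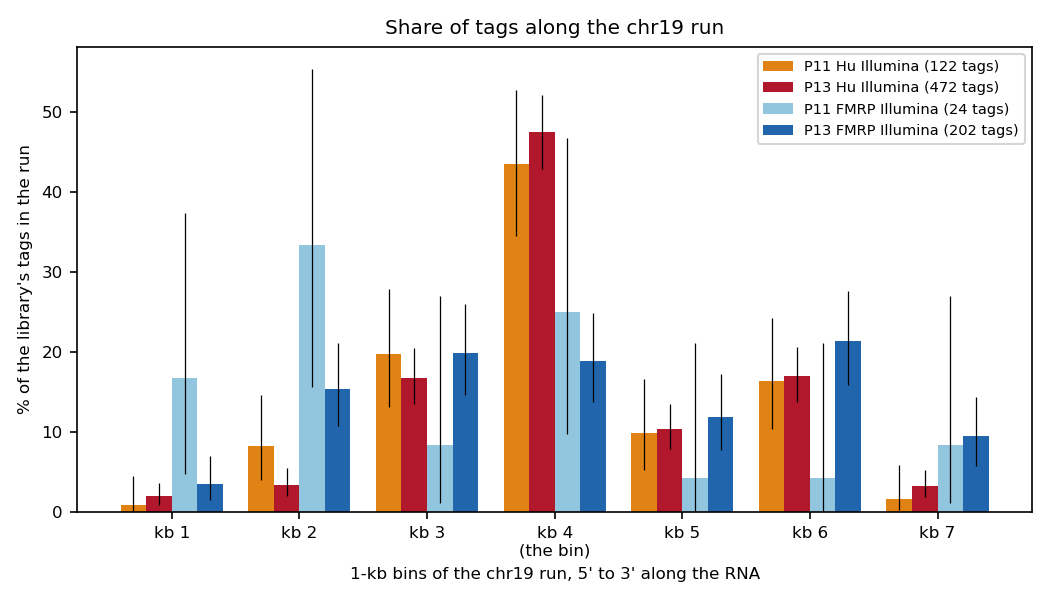
Share of each Illumina library's tags in the chr19 run (vertical axis, percent) by 1-kb bin in order from the 5′ end, with exact 95% intervals as lines. Both Hu libraries peak in the fourth bin at 43.4% and 47.5%, while the P13 FMRP library has 18.8% there. That bin was chosen as high in Hu, which favours the Hu share.

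The chr18 pile-up went on into the next bin, chr18:82754001-82755000 plus, which held 58 and 147 Hu tags and 0 and 22 FMRP tags. The chr4 pile-up filled its bin alone by the cut of 10 Illumina tags per bin, with 6 Illumina tags in the bin before it and 4 in the next one.

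Beside the chr6 pile-up stood a second short pile-up on the other strand, chr6:47738001-47739000 minus, at the place that Rny1 holds in the gene order. It was chosen after its values were seen. Its tags spanned 111 nt, the length of Rny1, and it held 9 and 26 FMRP tags and 2 and 36 Hu tags (P11 and P13). Hu over FMRP there was 0.164 at P11 (0.0172 to 0.792) and 0.955 at P13 (0.561 to 1.65), against 7.01 and 13.3 in the chr6 bin. Both places were chosen with these counts in view, so the values are set side by side without a test. These were the only 2 stranded bins with at least 10 Illumina tags between Ezh2 and Pdia4.

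Hu tags were longer at P13 than at P11 in all 5 bins by their medians, and the same held for the libraries as wholes. The median Hu tag width went from 44 nt at P11 to 50 nt at P13 in chr6, from 49.5 to 58 in chr8, from 45 to 53.5 in chr19, from 43 to 55 in chr18 and from 40 to 47.5 in chr4. The library medians were 40 and 46 nt for Hu and 46 and 50 nt for FMRP. Tags of at least 71 nt were 1.29% of the P11 Hu library and 10.9% of the P13 Hu library, so widths near the upper limit were recorded more often at P13. Of the 5 bins, chr8 had the highest median width in both Hu libraries and chr4 the lowest. FMRP medians at P11 and P13 were 45 and 45.5 nt in chr6, 58.5 and 56 in chr8, and 44.5 and 56 in chr19.

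Hu tags were fewer at P11 than at P13 in every bin. In CPM, the ratio of P11 to P13 was 0.344 (exact 95% interval 0.273 to 0.430) in chr6, 0.372 (0.279 to 0.489) in chr8, 0.396 (0.287 to 0.536) in chr19, 0.553 (0.378 to 0.793) in chr18 and 0.269 (0.175 to 0.400) in chr4. These intervals cover counting error only, and there is 1 Hu library per age. The bins were picked on Hu tags, most of which come from the deeper P13 library. Among the 41 other bins with at least 100 Hu tags the median ratio was 0.755 (range 0.150 to 5.06), with 26 of them (63.4%) below 1 and 16 below the highest of the 5 bins, so lower ratios were common there too.

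**Figure D5:**
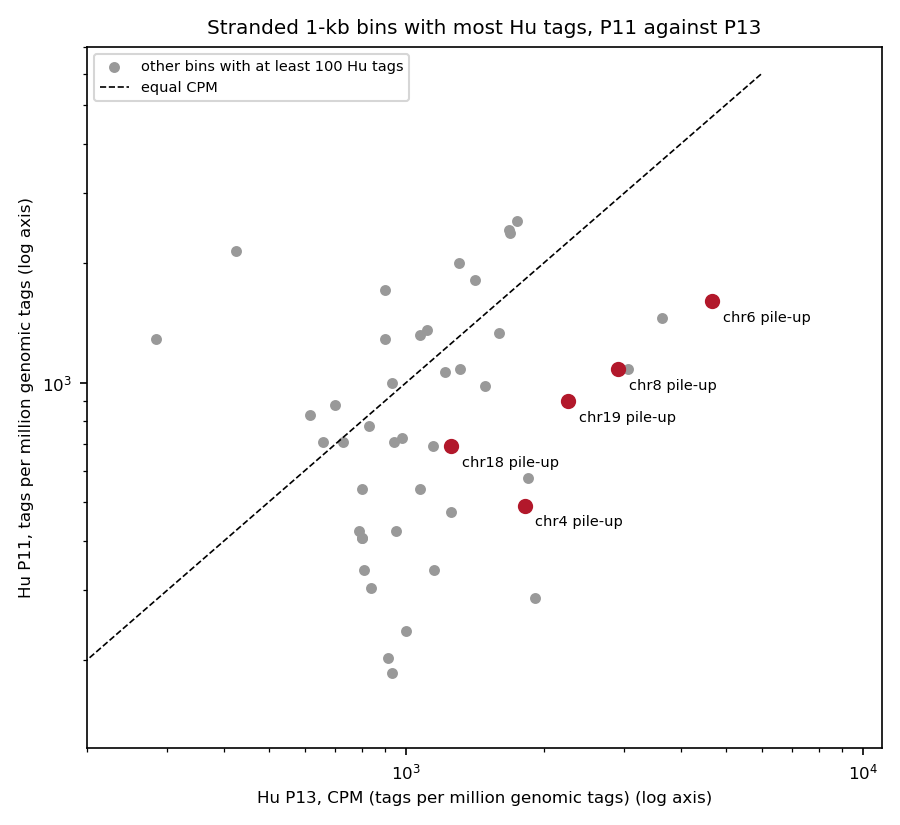
Hu genomic tags in CPM at P13 (horizontal, log axis) and P11 (vertical, log axis) for the 46 stranded bins with at least 100 Hu tags. The 5 bins (red) all lie below the dashed line of equal levels, with ratios of 0.269 to 0.553, and 26 of the 41 other bins lie below it too.

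FMRP tags were fewer at P11 as well. The ratio of P11 to P13 was 0.652 (0.278 to 1.41) in chr6 and 0.592 (0.296 to 1.12) in chr8, intervals that include 1. It was 0.247 (0.0853 to 0.589) in chr19, 0.156 (0.0036 to 1.10) in chr18 and 0.0579 (0.00141 to 0.351) in chr4. Hu-rich bins of 2 mRNAs also held fewer FMRP tags at P11 than at P13: Snap25 (a synaptic protein) had 0 and 46 tags, and Actb (beta-actin) 4 and 21. In CPM the FMRP ratio of P11 to P13 was 0 for Snap25 and 0.298 for Actb. The Hu ratio was 0.353 for Snap25 and 1.46 for Actb (1.17 to 1.83), so Hu tags in the Actb bin went the other way.

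In the edgeR fit of P11 against P13 with protein as a term, log2 P11 over P13 was −1.76 (SE 1.19) for chr6, −1.77 (SE 1.297) for chr8, −2.31 (SE 1.42) for chr19, −2.06 (SE 1.59) for chr18 and −3.28 (SE 1.60) for chr4. The adjusted p in edgeR was 0.847 in each. None of these bins, and 0 of the 540 bins tested, passed (0%). In edgeR 13 bins had an unadjusted p under 0.05, chr4 among them. The median of all bins was −0.996, and it was −0.21 when library totals replaced the TMM factors. Relative to the median of the fit, the 5 bins lay between −0.77 (chr6) and −2.29 (chr4) on the log2 scale. DESeq2 called 60 of the 540 bins, all lower at P11 (11.1%), these 5 among them. The median of all bins in DESeq2 was −1.46, and relative to it the 5 bins lay between −0.81 (chr8) and −2.18 (chr4) on the log2 scale. The bins were chosen on Hu tags that come mostly from P13, and each age is 1 lysate, so nothing is read from these calls.

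Transcript tags of the marker lists differed between the ages in both directions. Over 7 myelin genes, transcript tags in CPM of the transcript lists were 8194 at P11 and 17995 at P13 for Hu, and 448 and 3131 for FMRP. Over 4 neuronal genes they were 7034 and 11776 for Hu, and 2538 and 4787 for FMRP. Over 4 astrocyte genes they were 0 and 0 for Hu, and 1642 and 908 for FMRP, lower at P13. Over 6 CaMKII genes they were 3672 and 3390 for Hu, and 1456 and 2859 for FMRP. The 2 microglial genes held 0 to 2 tags in each Illumina library. Their part in the result was not tested.

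The Illumina tag names also hold a number that reads as the sequencing reads behind each tag, a reading that the sources used here do not state. In the chr6 bin its median per tag was 679 at P11 and 250.5 at P13 for Hu, and 1314 and 64.5 for FMRP, against library medians of 1 to 3. In the chr8 bin it was 20 and 29 for Hu. By this number the chr6 bin stood at 7424 and 12210 CPM of reads in the Hu libraries. The ratio of P11 to P13 was then 0.608 for chr6, where tags gave 0.344.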

How the data were processed

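Per the submitters' processing notes, reads were aligned with Novoalign to mm9. Each deposited list holds tags on the genome or on transcripts. The authors' value beside a 454 tag is a count of reads, judged from whole numbers; the deposited score beside an Illumina tag was left out. Tag counts for FMRP libraries in the authors' gene table gave neighbours only.

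Each line was counted as 1 tag and placed by its middle in stranded bins of 1 kb. Libraries held 7439 to 12153 genomic tags on 454 and 43593 to 98832 on Illumina. Bins were tested with edgeR 4.0.16 (quasi-likelihood, TMM, filterByExpr, Benjamini-Hochberg adjustment at 0.05, two-sided), with DESeq2 1.42.0 as an alternative. The script was tested on simulated data. Intervals are exact (Clopper-Pearson) at 95% and cover counting error only. Replicates are pools of mice that differ in age, and any p-value reflects only how these few libraries vary. The P11 and P13 lysates pair the libraries, per the labels; across 540 bins the deviations of the P11 libraries from their group means had r = 0.63, across bins, which are not independent. Named places follow a rule: the 5 bins, their neighbours, and the other bins with most Hu tags, some of which are not reported here. The members and lists were chosen with earlier results of these data known. An mm9 genome was not used here, so no sequence is given.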

Additional observations from a re-analysis of the deposited data

How the results depend on the processing

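The number of bins that differed between FMRP and Hu was 105, and it was 68 with DESeq2 size factors, 193 with library totals, 0 of 103715 without the filter on low counts (2641 at an unadjusted p under 0.05, edgeR), 160 with DESeq2 and 32 with the replicate block. Leaving out 1 library gave 0 to 328. Calls in edgeR went to 0 without either Hu library (126 bins without P11 and 130 without P13 at an unadjusted p under 0.05), to 328 without the P13 FMRP library (280 lower in FMRP) and to 85 without the P11 FMRP library. The log2 FMRP over Hu of chr4 ranged from −6.04 to −0.64 when 1 library was left out. For P11 against P13 the count of 0 became 1 with DESeq2 size factors, 1 with library totals and 60 with DESeq2. Leaving out a library leaves this fit no residual degrees of freedom, so it was not run. The Hu ratio of P11 to P13 rose to 0.509 (chr6) and 0.562 (chr8) when 1 tag per start and end was counted. Reads in place of tags, chosen after seeing the data, gave 0.608 (chr6), 0.269 (chr8) and 0.406 (chr4). Merging barcodes 1 letter apart, also chosen after seeing the data, kept all 5 ratios within their intervals. The cause was not tested. Depth limits the FMRP side most, with 1 tag each at P11 in chr18 and chr4.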
